A study of Ceratopteris richardii with 9 samples.

Results

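The root tip (RT) and the shoot (SH) of the fern Ceratopteris richardii were compared directly, segment against segment, in 3 RT and 3 SH libraries, which are 6 of the 9 RNA-seq libraries made from the young sporophyte. All 28952 transcripts of the deposited table were members of the comparison. The paper filtered out genes with few reads over all its samples, and the table is named for filtered genes. Shares of all transcripts therefore refer to this deposited set, and no further choice by level was made here. Every plant was of the genotype Hn-n and was sampled at 45 days after fertilization, without any treatment that differed between the segments. The RT library held the tips of many roots, and the SH library held the leaves and the stem with its apex from several plants, with no root tissue. The differentiated root, which is the third segment of the study, did not enter the fit. Both segments are mixtures of cell types from pooled plants, so fewer cells of one type and less RNA per cell cannot be told apart. The paper describes the 3 libraries of each segment as independent biological replicates. The labels number them without saying whether they came from separate cultures, and the p-values measure the spread between these samples.

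In ferns a single tetrahedral apical cell at the root tip gives rise to the tissues of the root and to the root cap, and another apical cell at the stem tip builds the shoot. The root tip is therefore a small zone of division and early differentiation, whereas the shoot segment is mostly expanded photosynthetic tissue with a small apex. In Arabidopsis, WUSCHEL-related homeobox (WOX) factors, D-type cyclins with their retinoblastoma target, GRAS factors of the ground tissue, auxin response and transport proteins, and receptor kinases of the ACR4 type act in root meristems. Transcripts of the same families in Ceratopteris are the labelled transcripts here.

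Total estimated counts were between 20065742 and 26609147 in the RT libraries and between 25305228 and 27376654 in the SH libraries. Levels are given as CPM, the usual counts relative to library size, after scaling with the trimmed mean of M values (TMM), and they are not divided by transcript length, so only the same transcript is compared across libraries. RT replicate 1 stood apart from the other libraries. It had the lowest total but the fewest transcripts without a count, 339 against 558 to 720 elsewhere, and its TMM factor was 1.31 against 1.06 and 1.12 in the other RT libraries. Calls and directions of the named transcripts and abundance classes that changed without it are given with both values.

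The RT and the SH differed in a large part of the tested transcripts. With both thresholds, a log2 fold change of 2 or more in size and an adjusted p up to 0.05, 2671 transcripts (9.23% of all tested) were higher in the RT and 3429 (11.8%) were higher in the SH, together 6100 (21.1%; edgeR's quasi-likelihood test, adjusted over all transcripts). Among the 25 labelled transcripts, those for WOX, GRAS, ARF10/16 and ACR4-related proteins lay mainly on the RT side, the CYCD and RBR families held members that passed the test and members that did not, and 1 PIN transcript was the only labelled transcript higher in the SH. By the adjusted p alone, 19 of the 25 were higher in the RT, 1 was higher in the SH and 5 did not pass. The same limit was passed by 29.3% of all transcripts toward the RT and 27.8% toward the SH, 57.1% in all. These 25 were labelled by earlier work on the root meristem and were listed here with earlier results of the same libraries known, so their share is a description.

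**Figure D1:**
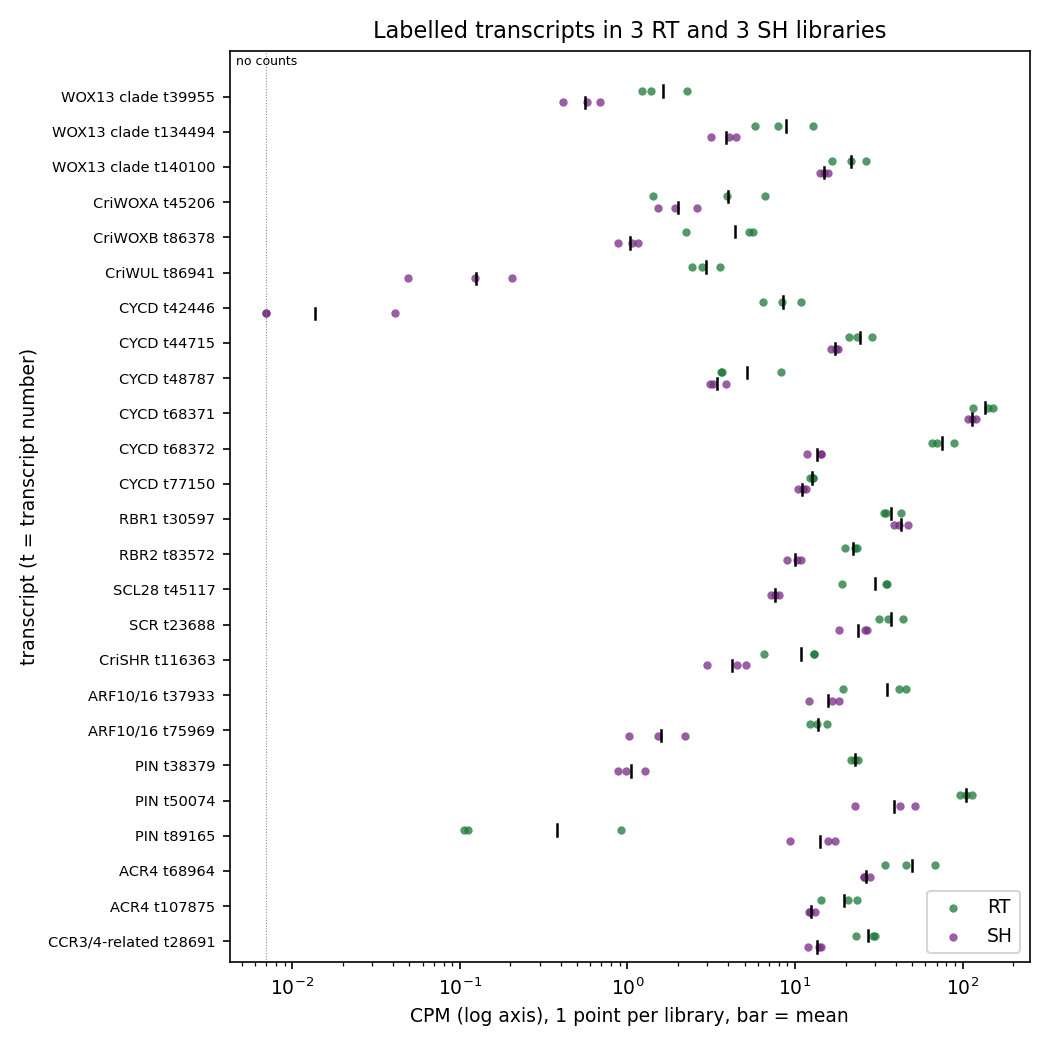
CPM of each labelled transcript on a log axis, with 1 point per library for the 3 RT and the 3 SH libraries, a bar at each mean and libraries without a count drawn at the dotted line. The RT points lay above the SH points for 20 of the 25, below them for 1 and among them for 4, where the shares over all transcripts were 33.5% above and 31.8% below.

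The WOX transcripts encode homeodomain factors that in Arabidopsis maintain stem cells and pattern the embryo. Of the 6 measured, 5 were higher in the RT and 1 did not pass the test. CriWUL (transcript86941), the Ceratopteris member of the WUSCHEL clade, was at 3.58, 2.42 and 2.80 CPM in RT replicates 1 to 3 and at 0.0488, 0.205 and 0.123 CPM in SH replicates 1 to 3. The SH values rest on 1, 5 and 3 counts, near the limit of detection, and the lowest RT library was above the highest SH library. The RT mean was 23.4-fold the SH mean, with a log2 fold change of 4.46 ± 0.48 (SE, n = 3 per segment, edgeR, adjusted p = 6.7e-05). CriWUL was thus the labelled WOX transcript with the largest difference between root tip and shoot.

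CriWOXB (transcript86378), of the clade of Arabidopsis WOX9, was at 5.34, 2.23 and 5.64 CPM in the RT and at 0.878, 1.15 and 1.07 CPM in the SH. The RT libraries were uneven, with replicate 2 lowest, but all lay above the SH. The log2 fold change was 2.09 ± 0.39 (SE, n = 3, edgeR, adjusted p = 0.0017). CriWOXB fell to 1.94 without RT replicate 1 (edgeR, adjusted p = 0.0036), below the log2 fold threshold of 2. Its relative CriWOXA (transcript45206) was at 1.41, 3.91 and 6.63 CPM in the RT and at 1.51, 2.59 and 1.93 CPM in the SH, and here RT replicate 1 was below every SH library. CriWOXA did not pass the test, with a log2 fold change of 0.99 and a 95% interval from -0.15 to 2.12 (edgeR, adjusted p = 0.124). Without RT replicate 1 the difference was 1.40 and passed (edgeR, adjusted p = 0.0058). It also passed with all libraries when these were scaled by their totals alone (1.34, edgeR, adjusted p = 0.0434).

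The WOX13 clade, the oldest branch of the family in land plants, had 3 transcripts, and all of them were higher in the RT by smaller amounts. Transcript39955 was at 1.22, 1.38 and 2.27 CPM in the RT and 0.683, 0.410 and 0.574 CPM in the SH, and the log2 fold change was 1.54 ± 0.42 (SE, n = 3, edgeR, adjusted p = 0.0121). Transcript134494 was at 5.76, 7.86 and 12.9 CPM against 3.17, 4.02 and 4.47 CPM, a log2 fold change of 1.18 ± 0.32 (edgeR, adjusted p = 0.011). Transcript140100 was at 16.5, 21.5 and 26.6 CPM against 14.1, 14.9 and 15.7 CPM, with the lowest RT library close to the highest SH library. Its log2 fold change of 0.53 ± 0.20 was near the limit (edgeR, adjusted p = 0.0469). In all 3, RT replicate 1 was the lowest RT library and RT replicate 3 the highest. Without RT replicate 3 the difference fell to 0.78 for transcript134494, which still passed (edgeR, adjusted p = 0.0473), and transcript140100 kept its call only without RT replicate 1 when single libraries were left out (edgeR, adjusted p of 0.0972 to 0.209 without each of the other 5). Its call was also lost with the scaling factors of DESeq2 in edgeR (adjusted p = 0.0747), with DESeq2 itself (adjusted p = 0.0768) and with limma voom (adjusted p = 0.0534).

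D-type cyclins (CYCD) bind kinases that phosphorylate the retinoblastoma-related protein (RBR), which otherwise holds cells before DNA replication. Of the 6 labelled CYCD transcripts, 3 were higher in the RT and 3 did not pass. Transcript42446 was at 6.41, 10.8 and 8.30 CPM in the RT, from 168, 291 and 234 counts, and in the SH it had 1 count in replicate 2 and none in replicates 1 and 3. It was thus close to absent from the shoot libraries at this depth. The summed counts, 693 against 1, gave a 590-fold higher level in the RT, and the exact 95% limits of 106 and 23356 hold for counting error alone. The fitted log2 fold change was 8.78 ± 0.58 (SE, n = 3, edgeR, adjusted p = 5.5e-06). Transcript68372 was at 65.8, 70.6 and 88.6 CPM in the RT and at 11.7, 14.3 and 14.3 CPM in the SH, and the log2 fold change was 2.48 ± 0.18 (SE, n = 3, edgeR, adjusted p = 7.4e-06). Transcript44715 was at 20.9, 28.8 and 23.3 CPM against 16.4, 18.02 and 17.4 CPM, a small difference of 0.49 ± 0.17 on the log2 scale (edgeR, adjusted p = 0.0338). That call was lost without any one of the libraries except RT replicate 1, and the difference fell to 0.32 without RT replicate 2. It was lost as well with the scaling factors of DESeq2 in edgeR (adjusted p = 0.0611), with DESeq2 itself (adjusted p = 0.0691) and with all 9 libraries in the edgeR fit (adjusted p = 0.117).

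The other CYCD transcripts did not pass the test, and for 2 of these 3 the interval of the difference stayed within 2-fold. Transcript68371 was at 115, 142 and 153 CPM in the RT and at 120.5, 107 and 114 CPM in the SH, so the segments overlapped. Its log2 fold change was 0.26, with a 95% interval from -0.09 to 0.61 that stayed within a 2-fold difference (edgeR, adjusted p = 0.176), and without RT replicate 1 it was 0.39 and passed (edgeR, adjusted p = 0.031). Transcript77150 was at 12.3, 12.8 and 12.9 CPM against 11.1, 10.5 and 11.6 CPM. Its RT libraries lay just above the SH libraries, and the interval of -0.19 to 0.57 was also within 2-fold (edgeR, adjusted p = 0.358). Transcript48787 was at 8.24, 3.69 and 3.62 CPM against 3.85, 3.12 and 3.24 CPM, where RT replicate 1 alone was far above the rest (log2 fold change 0.61, interval -0.19 to 1.40, edgeR, adjusted p = 0.17). Its interval reached beyond 2-fold, and without that library the difference was 0.12. With library totals in place of TMM, transcript68371 (0.68, edgeR, adjusted p = 0.00096) and transcript77150 (0.62, edgeR, adjusted p = 0.0142) passed, and transcript68371 also passed with upper-quartile scaling (0.36, edgeR, adjusted p = 0.0375).

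Of the RBR transcripts, RBR2 passed the test and RBR1 did not. RBR2 (transcript83572) was at 22.9, 19.9 and 23.6 CPM in the RT and at 8.98, 10.8 and 10.3 CPM in the SH, with no overlap. The log2 fold change was 1.14 ± 0.17 (SE, n = 3, edgeR, adjusted p = 0.00044). RBR1 (transcript30597) was at 43.0, 33.7 and 34.8 CPM in the RT and at 41.8, 47.4 and 39.2 CPM in the SH, and the segments overlapped. Its log2 fold change was -0.20 with a 95% interval of -0.56 to 0.15, within a 2-fold difference (edgeR, adjusted p = 0.292). The sign turned to 0.23 when libraries were scaled by their totals alone.

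All 3 GRAS transcripts were higher in the RT. In Arabidopsis SHORT-ROOT (SHR) moves from the stele into the neighbouring layer and acts there with SCARECROW (SCR) in the division that forms the ground tissue, and SCL28 acts in the later part of the cell cycle. SCL28 (transcript45117) was at 19.02, 34.8 and 35.5 CPM in the RT and at 7.22, 7.63 and 8.04 CPM in the SH, and the log2 fold change was 1.96 ± 0.25 (SE, n = 3, edgeR, adjusted p = 0.00018). CriSHR (transcript116363) was at 6.52, 12.9 and 12.9 CPM against 2.98, 4.51 and 5.13 CPM, a log2 fold change of 1.36 ± 0.32 (edgeR, adjusted p = 0.0061). Both were lowest in RT replicate 1 among the RT libraries, and that library was still above the SH. SCL28 rose to 2.22 without that library (edgeR, adjusted p = 1.3e-05) and then passed both thresholds. SCR (transcript23688) was at 44.3, 31.9 and 36.0 CPM against 26.2, 18.3 and 26.8 CPM, a log2 fold change of 0.65 ± 0.20 (edgeR, adjusted p = 0.0195). Here RT replicate 1 was the highest library, and without SH replicate 2, the lowest, the call for SCR was lost (edgeR, adjusted p = 0.0705).

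Auxin response factors of the ARF10/16 type are repressors that in Arabidopsis are needed for root cap differentiation, and PIN proteins carry auxin out of the cell. The ARF and PIN labels rest on less certain readings than the other labels, and further members of both families are not analysed here. Both labelled ARF10/16 transcripts were higher in the RT. Transcript75969 was at 15.4, 12.3 and 13.6 CPM in the RT and at 2.20, 1.03 and 1.52 CPM in the SH, and the log2 fold change was 3.13 ± 0.30 (SE, n = 3, edgeR, adjusted p = 3.3e-05). Transcript37933 was at 19.3, 45.8 and 41.5 CPM against 12.1, 16.5 and 18.3 CPM, and its lowest RT library, replicate 1, was only just above the highest SH library. The log2 fold change was 1.18 ± 0.31 (edgeR, adjusted p = 0.0104), and without RT replicate 2 the call was lost (edgeR, adjusted p = 0.0567).

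The 3 labelled PIN transcripts differed in direction. Transcript38379 was at 22.9, 21.6 and 23.7 CPM in the RT and at 0.878, 1.27 and 0.984 CPM in the SH, 21.8-fold higher in the RT by the means (log2 fold change 4.43 ± 0.23, SE, n = 3, edgeR, adjusted p = 2.1e-06). Transcript50074 was at 96.0, 114 and 105 CPM against 22.7, 52.2 and 42.2 CPM, with a log2 fold change of 1.42 ± 0.27 (edgeR, adjusted p = 0.0018). Transcript89165 was at 0.915, 0.112 and 0.106 CPM in the RT, from 24, 3 and 3 counts, and at 9.32, 17.3 and 15.7 CPM in the SH. By the means the SH level was 37.4-fold the RT level, and the log2 fold change was -5.22 ± 0.68 (edgeR, adjusted p = 0.00020), and RT replicate 1 held most of its few RT counts. Without RT replicate 1 the log2 fold change was -6.94 (edgeR, adjusted p = 8.7e-06). This transport family thus had members on both sides of the comparison.

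ACR4 is a receptor kinase that in Arabidopsis restricts formative divisions in the root cap and in lateral roots, and the CCR proteins are its relatives. All 3 transcripts of this group were higher in the RT by less than 4-fold. ACR4 transcript68964 was at 34.4, 46.1 and 68.6 CPM in the RT and at 25.9, 25.9 and 28.1 CPM in the SH, and the log2 fold change was 0.90 ± 0.24 (SE, n = 3, edgeR, adjusted p = 0.0098). ACR4 transcript107875 was at 14.2, 20.7 and 23.5 CPM against 12.1, 12.3 and 13.1 CPM, a log2 fold change of 0.64 ± 0.21 (edgeR, adjusted p = 0.0276). Both ACR4 transcripts were lowest in RT replicate 1 and highest in RT replicate 3. The CCR3/4-related transcript28691 was at 29.0, 23.1 and 29.9 CPM against 14.0, 12.0 and 14.4 CPM, a log2 fold change of 1.03 ± 0.17 (edgeR, adjusted p = 0.00088). Without RT replicate 3 the difference for transcript68964 was 0.57 (edgeR, adjusted p = 0.0363), and the call for transcript107875 was lost without any one of the libraries except RT replicate 1 (edgeR, adjusted p of 0.0665 to 0.118).

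**Figure D2:**
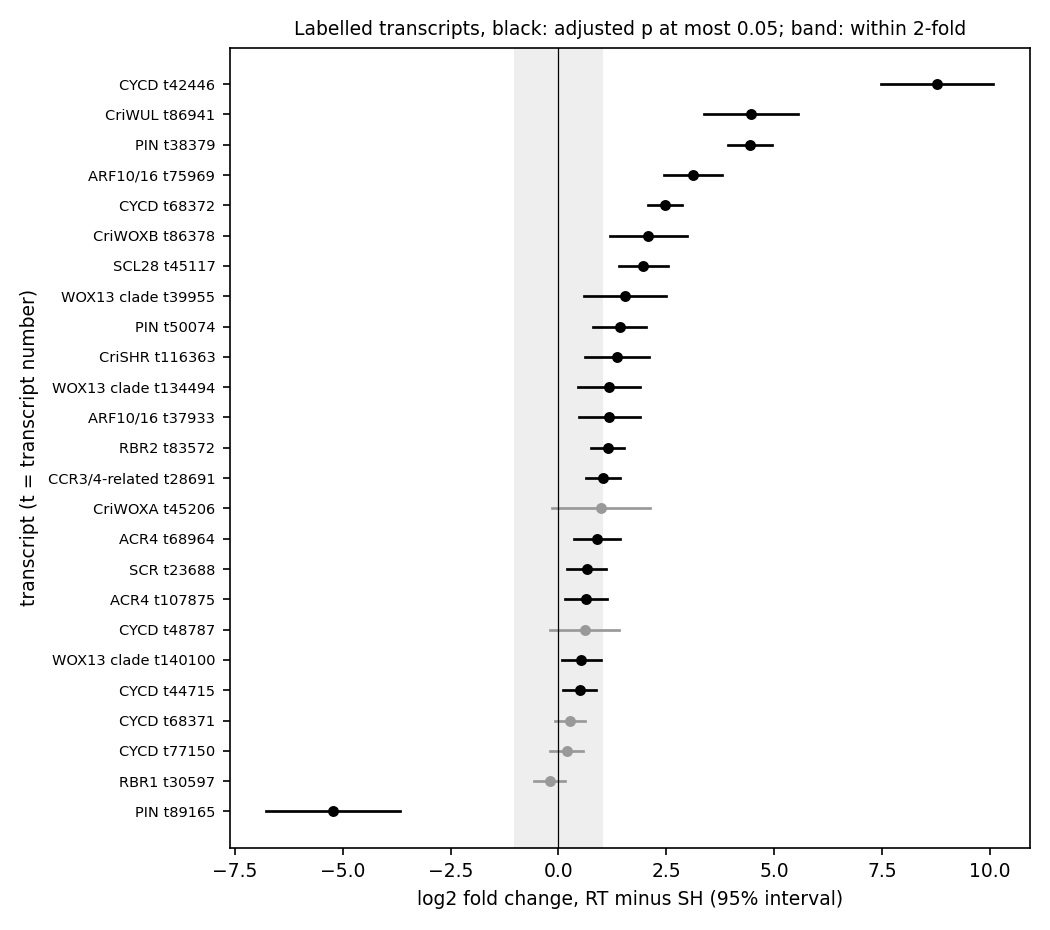
Log2 fold change (RT minus SH) of each labelled transcript with its 95% interval from the edgeR fit, black where the adjusted p was at most 0.05, and the band marking differences within 2-fold. Values ran from -5.22 for a PIN transcript to 8.78 for a CYCD transcript that had 1 count in all SH libraries, and 5 transcripts did not pass.

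By the stricter rule of both thresholds, 6 of the 25 labelled transcripts were higher in the RT and 1 was higher in the SH, beside 9.23% and 11.8% of all transcripts. Those 6 were CriWUL, CriWOXB, 2 CYCD transcripts, 1 ARF10/16 and 1 PIN transcript. CriWOXB was below a log2 fold change of 2 without RT replicate 1 (1.94), RT replicate 3 (1.82) or SH replicate 1 (1.99). It was also below 2 with limma voom (1.96). SCL28, at 1.96, passed both thresholds without RT replicate 1 (2.22) or SH replicate 3 (2.003), and with library totals (2.36) or upper-quartile scaling (2.05). The median log2 fold change of the labelled transcripts was 1.14, and that of all transcripts was 0.11. Within the RT, replicate 1 was the lowest library for 15 of the 25 and replicate 3 was the highest for 15. RT replicate 1 was the lowest RT library for 44.2% of the 22734 transcripts with a mean of at least 1 CPM, and RT replicate 3 was the highest for 36.3%. Within the SH, replicate 1 was the lowest library for 17 of the 25, beside 32.7% of those 22734 transcripts.

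Across all tested transcripts the 3 RT libraries lay entirely above the SH libraries for 9712 (33.5%) and entirely below them for 9199 (31.8%). Among the transcripts past both thresholds, the segments did not overlap in 2617 of the 2671 higher in the RT and in 3421 of the 3429 higher in the SH. The median difference of the called transcripts was similar on both sides, a log2 fold change of 3.05 toward the RT and -3.11 toward the SH. The very large differences lay more often on the SH side. A difference of at least 64-fold was fitted for 215 transcripts toward the RT and 390 toward the SH, and one of at least 256-fold for 19 and 146. At 64-fold and above, 69 of the 215 and 93 of the 390 had no count in the other segment, and for these the fitted fold depends on the prior count. At 256-fold and above these were 14 of the 19 and 56 of the 146. The median level in the higher segment was 4.29 CPM toward the RT and 11.0 CPM toward the SH at 64-fold. At 256-fold it was 2.42 and 15.5 CPM. Lower levels leave less room for a large measured fold, so the 2 sides were not compared at equal levels.

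The balance of the calls depended on the scaling. Scaling by library totals alone gave 3832 transcripts higher in the RT and 2579 higher in the SH, so that 59.8% of the calls were on the RT side against 43.8% with TMM, and it moved the median log2 fold change of all transcripts from 0.11 to 0.54. Leaving the 10 most abundant SH transcripts out of the TMM calculation gave the same 2671 and 3429 transcripts. TMM already trims extreme transcripts, so this setting could change little.

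**Figure D3:**
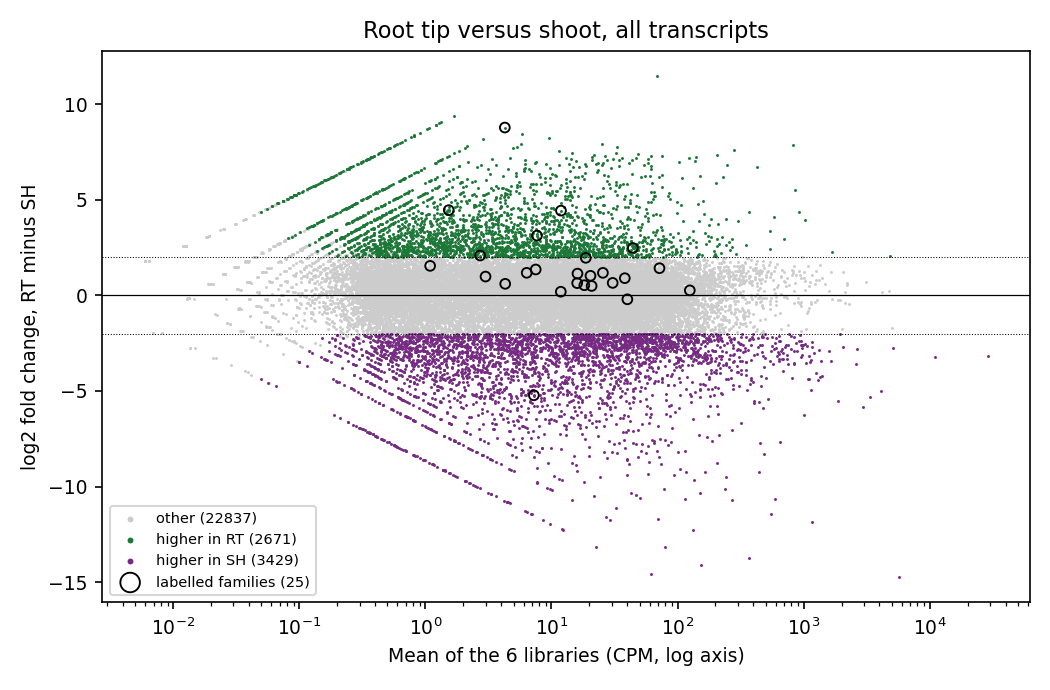
Log2 fold change (RT minus SH) of each transcript against its mean CPM over the 6 libraries on a log axis, with the transcripts past both thresholds coloured by segment and the labelled transcripts circled. The 2671 transcripts higher in the RT and the 3429 higher in the SH are shown with all others except 15 that had no count in these libraries.

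The direction of the calls changed with abundance. Among the 76 transcripts with a mean of 1000 CPM or more, 34 (44.7%) were higher in the SH and 3 (3.95%) were higher in the RT. Between 100 and 1000 CPM, 382 of 1719 (22.2%) were higher in the SH and 72 (4.19%) in the RT. Both of these upper classes kept more SH than RT calls under every scaling used, including library totals, with 43.4% against 3.95% and 16.5% against 8.09%. Below 1 CPM the order was the opposite, with 13.5% of 6218 transcripts higher in the RT and 9.83% higher in the SH. In that lowest class the order turned without RT replicate 1, to 11.8% higher in the RT and 13.3% higher in the SH. Between 10 and 100 CPM, 5.72% were higher in the RT and 9.87% in the SH with TMM, and this order turned with library totals, to 9.45% and 7.01%. Between 1 and 10 CPM, 12.1% of 8744 were higher in the RT and 13.7% in the SH with TMM. That order also turned with library totals, to 16.5% and 10.7%, and narrowly with upper-quartile scaling, to 12.84% and 12.76%. Abundance classes join expression and transcript length, since CPM is not divided by length.

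The most abundant transcripts held a larger share of the counts in the SH than in the RT. The single most abundant transcript of each library took 3.93% to 5.21% in the SH and 0.838% to 1.07% in the RT. The 10 most abundant transcripts of each library took 11.2% ± 0.752 (SD, n = 3) of the counts in the SH and 4.67% ± 0.974 (SD, n = 3) in the RT, with no overlap between segments (exact permutation test, two-sided, p = 0.1, the smallest p that 3 against 3 allows). The transcripts called higher in the SH held 39.6% ± 1.94 (SD, n = 3) of the SH counts and 5.86% ± 0.517 (SD, n = 3) of the RT counts. The transcripts called higher in the RT held 10.2% ± 0.551 (SD, n = 3) of the RT counts and 0.970% ± 0.0769 (SD, n = 3) of the SH counts. The calls were made on the same libraries, so these shares are a description of how much of the counts the differences cover. Of the 50 most abundant SH transcripts, 36 were called higher in the SH and 1 higher in the RT. Of the 50 most abundant RT transcripts, 7 were called higher in the RT and 3 higher in the SH, while 40 were not called. Over all transcripts 9.23% were called higher in the RT and 11.8% higher in the SH, together 21.1%. The RT list was thus called about as often as all transcripts, whereas the SH list was called more often. Both lists shared 16 transcripts.

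**Figure D4:**
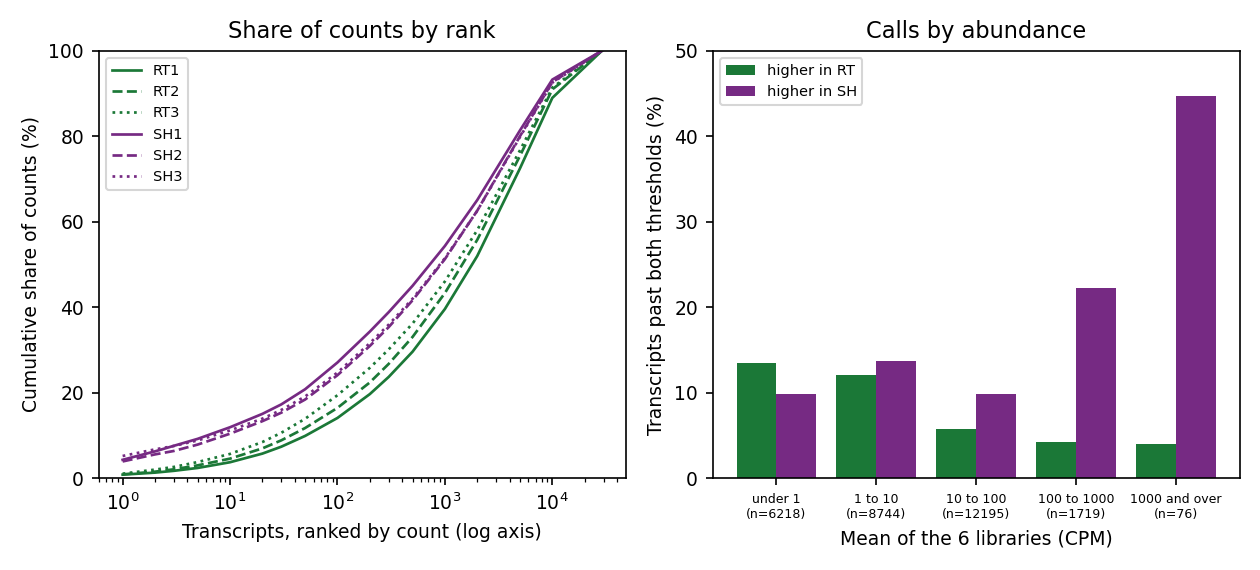
Left, cumulative share of the counts (%) by transcript rank on a log axis in each RT and SH library; right, share of transcripts (%) past both thresholds toward each segment in classes of mean CPM. The first 10 ranks held 10.4% to 11.9% of the SH counts and 3.74% to 5.69% of the RT counts, and the lead of the SH side was widest in the classes from 100 CPM upward.

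Among abundant transcripts without a family name, those with the largest difference in mean CPM were examined in each direction. The table does not pair these numbers with gene names. Transcript116031 was at 3243, 3979.6 and 10079 CPM in the RT and at 53246, 44129.5 and 58245 CPM in the SH, where it alone took 3.93% to 5.21% of the counts. It was 8.99-fold higher in the SH by the means, with RT replicate 3 well above the other RT libraries (log2 fold change -3.17 ± 0.71, SE, n = 3, edgeR, adjusted p = 0.0043). Without RT replicate 3 the log2 fold change was -3.87 (edgeR, adjusted p = 0.0022). Transcript145990 was at 1797, 2709.6 and 2004 CPM against 24294, 18498 and 17255 CPM, 9.22-fold higher in the SH (log2 fold change -3.21 ± 0.47, edgeR, adjusted p = 0.00040). On the RT side, transcript28120 was at 6413, 8074 and 8975 CPM in the RT and at 1919.9, 1731 and 1925 CPM in the SH, 4.21-fold higher in the RT (log2 fold change 2.07 ± 0.34, edgeR, adjusted p = 0.00079). Transcript30315 was at 2485, 2779 and 3089 CPM against 630.2, 499.9 and 573 CPM, 4.91-fold higher in the RT (log2 fold change 2.29 ± 0.26, edgeR, adjusted p = 8.6e-05). All 4 had at least 12180 counts in every library of both segments. Other abundant transcripts were close to absent from 1 segment. The most abundant SH transcript below 1 CPM in every RT library was at 16147, 9063 and 8923 CPM in the SH and had 23, 6 and 4 counts in the RT.

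Presence in one segment only was counted at a limit of 1 CPM in at least 2 of the 3 libraries of a segment. By this count 19645 transcripts were found in both segments, 1749 in the RT and not the SH, 2303 in the SH and not the RT, and 5255 in neither. Of these, 1071 of the 1749 and 1422 of the 2303 passed both thresholds in that direction, so the rest were not called different. Most of the transcripts found in a single segment were low, with a median of 2.15 CPM in the RT and 2.27 CPM in the SH. Levels of at least 10 CPM in the segment where they were found were reached by 176 of the RT transcripts and 385 of the SH transcripts. Complete absence was rare, as 16 of the 1749 had no count in any SH library and 65 of the 2303 had none in any RT library. Leaving out single libraries moved the 2 counts between 1336 and 2167 for the RT and between 1911 and 2781 for the SH, since the group with a library left out had to reach the limit in both libraries that were left.

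Similarity between the segments was judged by the interval of the difference. The whole 95% interval lay within a 2-fold difference for 6591 transcripts, of which 1268 passed the adjusted p and 5323 did not. Another 7097 of the 12420 transcripts that missed the adjusted p had intervals that reached beyond 2-fold, so for them neither a difference nor likeness was shown. The median standard error of the log2 fold change was 0.65 below 1 CPM, 0.19 between 10 and 100 CPM and 0.33 again at 1000 CPM and over, so precision was lowest at low counts and did not rise steadily with abundance. Replicates spread more in the RT, with a median SD of 0.26 on the log2 scale against 0.17 in the SH over 22734 transcripts, and the RT spread was the larger for 68.1% of them.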

How the data were processed

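RNA was sequenced from TruSeq libraries, whose kit does not mark strand. The authors trimmed reads with Trimmomatic 0.32, checked them with FastQC 0.11.2, assembled and clustered a transcriptome, and quantified it with kallisto 0.44.0 (versions from the submitters' processing notes). The deposited values are estimated counts per transcript, although the table is named for TPM, and 17.1% to 18.8% of a library's values were not whole. Near-identical transcripts may share reads. Counts were rounded and tested with edgeR 4.0.16 (R 4.3.3, limma 3.58.1) by the quasi-likelihood method. TMM scaling, no further filter and the default prior count were used, with Benjamini-Hochberg adjustment over 28952 transcripts. Standard errors were taken as the log2 fold change over the root of the F statistic. DESeq2 1.42.0, limma voom, other scalings, filters, thresholds, a replicate block and single libraries left out were alternatives.

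Total counts of 20065742 to 27376654 set the precision, and 3 counts correspond to 0.106 to 0.146 CPM. Replicates differed by far more than sampling noise (mean chi-square per transcript 19.1 to 59.3). On simulated data with 200 of 28952 transcripts changed by 3 on the log2 scale, the RT and SH fit recovered 199 (99.5%) and called 11 unchanged ones. The changed transcripts were at 1 CPM or more and balanced in direction. The simulation therefore does not cover smaller changes, lower levels or the unequal composition of the segments. The transcripts named are the 25 with labels, from the paper's text and an earlier account of the series, and the 2 unlabelled transcripts per direction with the largest difference in mean CPM among non-overlapping calls. Members and lists were chosen with earlier results of these data known. None of the transcript numbers (0) matched the reference gene table, so sequences and coordinates are not used here.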

Additional observations from a re-analysis of the deposited data

How the results depend on the processing

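Other tests and filters kept the counts of calls within 1.5 times, with 2560 higher and 3525 lower in the RT by DESeq2 and 2529 and 3568 by limma voom. With single libraries left out the calls ranged from 2470 to 2758 higher and from 3281 to 3778 lower. A fold threshold of 1 on the log2 scale gave 5900 and 6129, and no fold threshold gave 8496 and 8036. A 1.5-fold limit left 1839 transcripts with their interval inside it. Detection in 3 of 3 libraries and in none of the other segment gave 918 transcripts for the RT and 1187 for the SH. The SH excess in the share of the most abundant transcripts was 7.60 percentage points for the top 50 and 8.64 for the top 100. The SH-called transcripts held 33.6% of SH counts with library totals and 52.8% at the lower fold threshold, and 37.4% to 41.0% with single libraries left out. The RT-called transcripts held 15.5%, 31.6% and 8.62% to 11.7% of RT counts in the same order. RBR1 (transcript30597) turned from -0.20 to 0.23 with library totals, where it did not pass (edgeR, adjusted p = 0.326). The samples share only a replicate number, since deviations of same-numbered libraries correlated at 0.07, -0.01 and -0.15. With the replicate block 2564 transcripts were higher and 3496 lower, and transcript116031 missed the threshold (edgeR, adjusted p = 0.0721). Over the labelled and unlabelled transcripts named, results were compared by the adjusted p and the direction alone. By this measure 491 values stayed the same under an alternative, passing or not, while 24 stopped passing, 6 began to pass and 1 reversed. CriWOXB with the replicate block (1.99) and transcript28120 without RT replicate 3 (1.94) stayed the same by this measure but fell below the log2 fold threshold of 2.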

Other observations

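Ratios of estimated counts between members of a family do not depend on the library scaling or, when compared across segments, on transcript length. The pairs were chosen after the values were seen, and exact tests of 3 against 3 cannot go below p = 0.1. RBR2 per RBR1 was 0.533, 0.590 and 0.677 in the RT and 0.215, 0.228 and 0.263 in the SH, 2.55-fold higher in the RT by the means. The CYCD pair transcript68372 per transcript68371 was 0.572, 0.498 and 0.581 in the RT and 0.0972, 0.134 and 0.126 in the SH, 4.63-fold higher. In these RBR and CYCD pairs all RT libraries were above all SH libraries. CriWOXB per CriWOXA was 3.78, 0.571 and 0.850 in the RT and 0.581, 0.444 and 0.553 in the SH, and the high RT value came from replicate 1. The ACR4 pair transcript68964 per transcript107875 was 2.42, 2.22 and 2.92 in the RT and 2.15, 2.10 and 2.15 in the SH. Its RT ratios also lay above its SH ratios, by 1.18-fold in the means. CriSHR per SCR was 0.147, 0.404 and 0.360 in the RT and 0.114, 0.246 and 0.191 in the SH, and the segments overlapped (exact permutation test, two-sided, p = 0.3).

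Single RT libraries carried some of the calls. At least 80% of the summed RT level came from 1 library in 48 of the 2671 transcripts called higher in the RT (1.80%), and that library was replicate 1 in 44 of them, replicate 3 in 4 and replicate 2 in 0. On the SH side this held for 1 of 3429. The 1 transcript with a fitted difference of at least 1024-fold toward the RT was at 9.76, 0.223 and 404 CPM in RT replicates 1 to 3, and had 0, 2 and 1 counts in the SH. What distinguishes RT replicate 1 was not tested.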
